A study of Mus musculus with 8 samples.

Results

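The transcripts described here are those of the immunoglobulin genes, together with Jchain and Mzb1, in the liver of fasted mice. They were taken from the deposited gene count table as every row named Jchain or Mzb1 or carrying an immunoglobulin heavy (Igh), kappa (Igk) or lambda (Igl) chain gene name, provided that its estimated counts summed to 10 or more over the 8 libraries, so that the members were chosen by name and selected on their total counts. This gave 126 of the 45706 genes in the table. They comprised 8 heavy constant genes, 1 kappa constant gene, 3 lambda constant genes, 45 heavy variable (V) genes, 64 kappa V genes, 3 lambda V genes, Jchain and Mzb1. A further 273 rows with such names fell below the minimum, and 206 of these had no count in any library. The rows closest to the minimum were Igkv4-78 and Igkv4-69, each at 9.01, and Ighv2-2 at 9.02 on the outside, and Ighv2-9 at 10.01, Ighv5-16 at 10.85 and Igkv3-12 at 10.92 on the inside. All of the counts of Ighv2-9 came from 1 library, SA/SA replicate 3. The minimum itself was met by 75 of the 126 genes on the counts of the other 7 libraries alone, and the remaining 51 passed only with the counts of SA/SA replicate 3 included.

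The libraries came from the liver of 4 wild-type (WT) and 4 PLIN5 S155A (SA/SA) mice, with 1 library per mouse. All were female C57BL/6J mice aged 4 months that had been fasted overnight. PLIN5 is a lipid droplet protein, and in SA/SA mice the serine that protein kinase A phosphorylates was replaced by alanine through CRISPR-Cas9 editing of the germline, so that every cell of the animal carried the change. The labels name hepatocytes as the cell type, whereas the RNA was extracted from liver.

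Immunoglobulins are made by cells of the B lineage, and plasma cells, its antibody-secreting end stage, devote much of their RNA to them. A heavy chain and a kappa or lambda light chain each join a V region, which is assembled by recombination and binds antigen, to a constant region, which for the heavy chain sets the isotype (IgM, IgD, IgG, IgE or IgA). Jchain encodes the joining chain that links IgM and IgA into polymers, and Mzb1 encodes an endoplasmic reticulum protein of B and plasma cells that helps IgM assembly. Liver takes up IgA polymers from blood through the receptor encoded by Pigr, and hepatocytes do not rearrange immunoglobulin genes.

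The deposited totals ran from 39709785 to 54540864 estimated counts per library, and SA/SA replicate 3 had the lowest. The same library held most of the immunoglobulin counts. The members summed to 1462, 1436, 1446 and 3021 counts in WT replicates 1 to 4, and to 2597, 3101, 102503 and 1640 counts in SA/SA replicates 1 to 4. Their share of all counts was 0.258% in SA/SA replicate 3, compared with 0.00268% to 0.00618% elsewhere. SA/SA replicate 3 thus contributed 87.5% of all member counts while contributing 10.1% of all counts in the table. In whole liver RNA, more cells of a type and more RNA per cell cannot be told apart. No pair of libraries was close to being a copy of another (smallest chi-square per gene between any pair, 41.3).

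Germline sequences of leading V genes are shown first, because the annotated V genes resemble each other and a count can be assigned to one gene only through bases that no other gene shares. Each line below gives the last 120 bases of the V exon of the GENCODE M21 transcript, 5′ to 3′ in the direction of the gene, and the capitals mark bases lying in a stretch of 31 bases found in the transcripts of no other gene. These are reference sequences and not the rearranged sequences of these mice. Ighv1-53, Ighv1-72 and Ighv10-3 led the heavy V counts over all libraries, Igkv3-2, Igkv14-111 and Igkv9-120 led the kappa V counts, Iglv1 led the lambda V counts, and Igkv8-16 led the kappa V counts of SA/SA replicate 1.
Ighv1-53: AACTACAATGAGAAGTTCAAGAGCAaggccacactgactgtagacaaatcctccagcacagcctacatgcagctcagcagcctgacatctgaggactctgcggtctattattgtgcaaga
Ighv1-72: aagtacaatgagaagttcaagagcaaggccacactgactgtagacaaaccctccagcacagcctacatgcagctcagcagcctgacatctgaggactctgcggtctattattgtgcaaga
Ighv10-3: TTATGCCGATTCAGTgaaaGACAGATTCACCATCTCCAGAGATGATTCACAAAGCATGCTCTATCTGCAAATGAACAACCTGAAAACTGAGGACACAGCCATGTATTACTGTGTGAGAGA
Igkv3-2: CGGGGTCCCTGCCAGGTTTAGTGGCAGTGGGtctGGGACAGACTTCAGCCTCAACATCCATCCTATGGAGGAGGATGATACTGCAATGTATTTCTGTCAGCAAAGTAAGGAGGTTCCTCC
Igkv14-111: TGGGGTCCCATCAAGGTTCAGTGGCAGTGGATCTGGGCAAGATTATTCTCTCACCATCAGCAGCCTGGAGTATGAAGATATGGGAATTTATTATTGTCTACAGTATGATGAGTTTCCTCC
Igkv9-120: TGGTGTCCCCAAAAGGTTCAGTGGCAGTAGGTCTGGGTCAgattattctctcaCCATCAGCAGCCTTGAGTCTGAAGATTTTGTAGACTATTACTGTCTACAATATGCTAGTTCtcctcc
Iglv1: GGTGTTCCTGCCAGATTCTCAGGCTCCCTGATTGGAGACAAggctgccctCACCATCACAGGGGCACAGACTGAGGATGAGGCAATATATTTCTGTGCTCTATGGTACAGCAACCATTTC
Igkv8-16: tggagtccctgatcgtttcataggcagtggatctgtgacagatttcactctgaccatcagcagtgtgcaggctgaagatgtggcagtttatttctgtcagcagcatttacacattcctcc

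On GRCm38 these stretches lie in the last exon of their genes, at chr12:115158403-115158522 for Ighv1-53, chr12:115757984-115758103 for Ighv1-72 and chr12:114523441-114523560 for Ighv10-3, all on the minus strand. The kappa stretches lie at chr6:70698948-70699067 for Igkv3-2, chr6:68256750-68256869 for Igkv14-111 and chr6:68050337-68050456 for Igkv9-120 on the plus strand, and at chr6:70386672-70386791 for Igkv8-16 on the minus strand. Iglv1 lies at chr16:19085017-19085136 on the minus strand. The stretches of Ighv1-53 and Ighv1-72 differed at 2 of 120 bases, whereas the closest of the 3 leading kappa genes, Igkv14-111 and Igkv9-120, differed at 23. Over the whole transcript, 63.5% of the 31-base words of Igkv3-2 were found in no other gene, against 27.1% for Ighv1-53, 24.7% for Igkv8-16 and 1.91% for Ighv1-72. For Ighv1-72, 80.3% of the words were shared with Ighv1-62-3, which was listed at 0 in every library. For Igkv8-16, 75.3% were shared with Gm43218, which was not analysed here. Words of this kind were under 50% in 54 of the 126 members, so the division of counts between single V genes is uncertain for these. The constant genes were far more distinct, with all words of Ighm, Igha, Ighe, Igkc and Jchain found in that gene alone and the lowest share, 74.9%, in Iglc3. Mzb1 shared 55.1% of its words with an overlapping gene model.

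Summed by chain and segment, every class was highest in SA/SA replicate 3, and the other 7 libraries of both genotypes overlapped. Levels are in CPM, the counts divided by library sizes that were scaled by edgeR's TMM method and put on a common total. The 8 heavy constant genes summed to 14.2, 15.2, 15.9 and 30.6 CPM in WT replicates 1 to 4, and to 24.7, 32.5, 1444 and 16.9 CPM in SA/SA replicates 1 to 4. Without replicate 3, the SA/SA mean was 24.7 ± 7.80 CPM (SD, n = 3) against 19.0 ± 7.76 CPM in WT (SD, n = 4), a difference smaller than the spread within either group. Igkc, the constant region of the kappa chain, read 7.07, 7.33, 8.44 and 17.2 CPM in WT and 13.5, 21.2, 806 and 8.66 CPM in SA/SA. The 3 lambda constant genes summed to between 0.842 and 2.37 CPM in the other 7 libraries and to 48.5 CPM in SA/SA replicate 3. SA/SA replicate 3 was also the highest for V genes, whereas the library next to it differed between classes. Heavy V genes summed to 77.3 CPM in SA/SA replicate 3 against 0.765 to 2.11 CPM elsewhere, kappa V genes to 223 against 1.87 to 5.23 CPM, and lambda V genes to 20.6 against 0.190 to 0.498 CPM. Relative to the highest of the other 7 libraries, SA/SA replicate 3 was 44.4-fold higher for heavy constant genes, 38.0-fold for Igkc, 20.4-fold for lambda constant genes, 36.6-fold for heavy V, 42.7-fold for kappa V and 41.4-fold for lambda V genes. These V sums include 21 heavy, 28 kappa and 1 lambda V genes that met the count minimum only through this library, which raises its sums. Over the 24 heavy, 36 kappa and 2 lambda V genes that met it on the other 7 libraries, an alternative chosen after seeing the data, the folds were 30.7, 36.2 and 37.0.

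**Figure D1:**
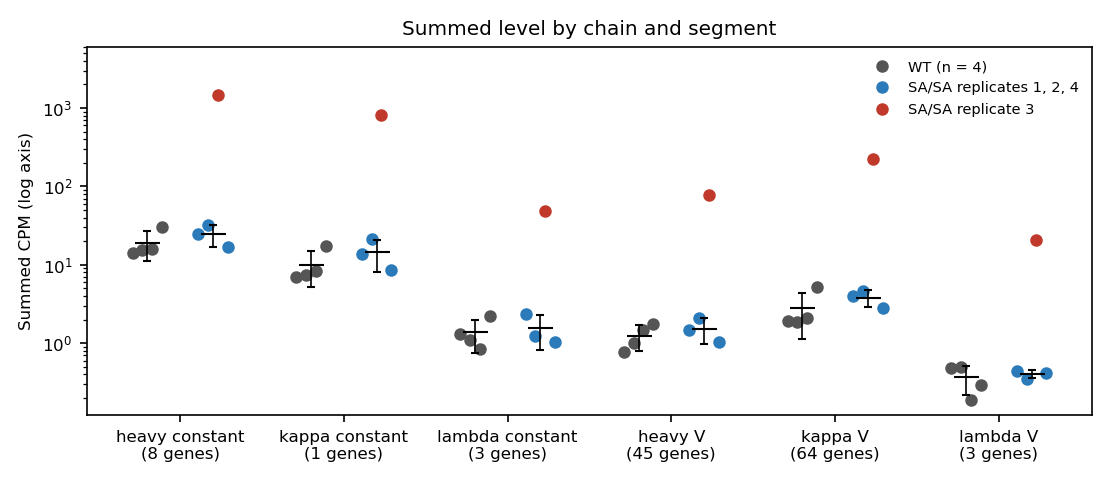
Summed level of each chain and segment class in CPM on a log axis, with 1 point per library. Bars give the mean and SD of the 4 WT libraries and of SA/SA replicates 1, 2 and 4, which overlap in every class, whereas SA/SA replicate 3 lies above all other libraries, at 1444 CPM for the heavy constant genes.

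The description of each sample holds a number, taken here as a mouse number, although the labels do not say what it stands for. These label numbers fell into a low series, up to 123, and a high series, from 830, with 2 WT and 2 SA/SA mice in each. SA/SA replicates 2 and 3 belonged to the high series. The difference of mean log2 levels, SA/SA minus WT, was 1.89 for the heavy constant genes over all 8 libraries. Within the low series it was -0.03, and within the high series 3.80. For Igkc it was 2.01 over all, -0.03 among low and 4.06 among high numbers, and for kappa V genes it was 2.05, 0.08 and 4.02. Among the low numbers, the difference over the 6 classes ran from -0.13 to 0.18, whereas among the high numbers SA/SA replicate 2 also read above both WT libraries for the heavy constant genes, at 32.5 CPM against 15.2 and 15.9 CPM. With replicate 3 left out, the difference of mean log2 levels ran from 0.17 for the lambda constant genes to 0.57 for the kappa V genes.

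The comparison between genotypes was tested over all genes with edgeR's quasi-likelihood test and Benjamini-Hochberg adjustment. The expression filter of edgeR asks for counts in several libraries, so a gene with few counts outside 1 library did not pass. Igkv3-2, with 3454 counts in SA/SA replicate 3, was such a gene. Of the 126 members, 15 passed and were tested among 14629 genes. These were 7 heavy constant genes, Igkc, the 3 lambda constant genes, Igkv1-110, Iglv1, Jchain and Mzb1. All 15 had a higher fitted mean in SA/SA, by a median log2 fold change of 3.71 against -0.0050 over all genes tested. No member was called at adjusted p under 0.05 (lowest adjusted p = 0.993), and the background of calls was 0% of all genes tested. At unadjusted p under 0.05, 12 of the 15 were higher in SA/SA, against 1.42% of all genes tested that were higher at this level and 1.98% that were lower. None of the 15 had all SA/SA libraries above all WT libraries, which was so for 0.943% of all genes tested, and none had all of them below, which was so for 1.36%. DESeq2 called no member either, with 2 at unadjusted p under 0.05, against 4.06% of all genes tested. It gave no adjusted p for 10 of the 15, and it called 0.0411% of the genes for which it gave one. Whether these 10 had an unadjusted p is not given here, so the 2 are not a share of all 15. With limma-voom none of the 15 was called and none had an unadjusted p under 0.05, against 3.19% of all genes tested. When SA/SA replicate 3 was left out, 16 members were tested, 12 were higher and 4 lower, and the median log2 fold change was 0.22. In that fit 1 member had an unadjusted p under 0.05, against 2.43% of all genes tested.

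Ighm, which encodes the heavy chain of IgM and lies at chr12:113418558-113422730 on the minus strand, was the most abundant member. It read 7.38, 6.80, 6.00 and 18.1 CPM in WT replicates 1 to 4, and 9.29, 8.89, 1164 and 10.7 CPM in SA/SA replicates 1 to 4. Only SA/SA replicate 3 lay outside the WT range, and the other 3 SA/SA libraries lay between the third and the highest WT values. The fitted log2 fold change was 4.96 ± 1.65 (SE; edgeR adjusted p = 0.993; two-sided exact permutation p = 0.400 on log2 CPM, where 0.0286 is the smallest p that 4 against 4 libraries allow). The difference of mean log2 CPM was -0.22 among the low and 3.99 among the high numbers, and the fitted log2 fold change was 0.0062 without replicate 3. Ighd, the heavy chain of IgD carried by naive B cells, did not follow this pattern. It read 1.03, 0.977, 1.26 and 2.43 CPM in WT and 2.45, 0.910, 2.03 and 1.72 CPM in SA/SA, so that SA/SA replicate 3 was within the range of the others and SA/SA replicate 1 was highest.

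The IgG heavy chains were all highest in SA/SA replicate 3 but differed between the remaining libraries. Ighg1 read 1.01, 0.0996, 3.94 and 0.987 CPM in WT and 0.519, 1.55, 87.7 and 0.712 CPM in SA/SA. WT replicate 3 was thus the second highest, and without SA/SA replicate 3 the fitted log2 fold change of 3.91 changed to -0.70. Ighg2b reached 71.8 and Ighg2c 62.8 CPM in SA/SA replicate 3, and in both genes SA/SA replicate 2 came next, at 4.55 and 2.11 CPM. Ighg3 read 0.373, 0.120, 0 and 0.178 CPM in WT and 3.08, 0.434, 10.6 and 0.0396 CPM in SA/SA, so that SA/SA replicate 1 also stood above every WT library. Its log2 fold change was 4.35 ± 1.37 (SE; edgeR adjusted p = 0.993) with all libraries and 2.79 without SA/SA replicate 3.

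Igha, the heavy chain of IgA, was the isotype least concentrated in 1 library after Ighd. It read 2.03, 5.46, 2.04 and 6.59 CPM in WT and 6.79, 14.0, 45.3 and 2.89 CPM in SA/SA. SA/SA replicate 3 was 3.23-fold above the next library, SA/SA replicate 2, and held 46.1% of all Igha counts, compared with 92.8% of all Ighm counts. The log2 fold change of Igha was 2.09 ± 0.76 (SE; edgeR adjusted p = 0.993; two-sided exact permutation p = 0.114), and 0.97 without SA/SA replicate 3. Ighe, the heavy chain of IgE, was too low to be tested, with 9 counts in SA/SA replicate 3, 2 in SA/SA replicate 2, 1 in WT replicate 1 and 0 in the other 5 libraries.

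Jchain and Mzb1, which serve assembly and secretion rather than antigen binding, were likewise highest in SA/SA replicate 3. Jchain, at chr5:88519809-88527891 on the minus strand, read 1.32, 1.22, 1.35 and 2.07 CPM in WT and 1.30, 1.78, 73.8 and 1.42 CPM in SA/SA. Mzb1 read 0.187, 0.359, 0.232 and 0.257 CPM in WT and 0.371, 0.331, 12.2 and 0.178 CPM in SA/SA. For both genes the 7 remaining libraries stayed close together, and SA/SA replicate 3 stood 35.6-fold and 32.8-fold above the highest of them, compared with 64.3-fold for Ighm. Jchain counts were accordingly 6.34% of Ighm counts in this library, below the 11.5% to 22.5% in the others. The log2 fold change was 3.71 ± 1.31 for Jchain and 3.63 ± 1.30 for Mzb1 (SE; edgeR adjusted p = 0.993 for both), and 0.0088 and 0.19 without SA/SA replicate 3. The RefSeq promoter table used here (GRCm38.p6) matched 1 member by symbol, Jchain, whose promoter entry did not hold the octamer ATGCAAAT, an element of immunoglobulin promoters, on either strand, whereas 1.74% of the 32851 promoters in the table did. Of the lambda constant genes, Iglc1 reached 33.5, Iglc2 12.4 and Iglc3 2.61 CPM in SA/SA replicate 3, against highest values of 0.834, 1.17 and 0.553 CPM in the other libraries. Over the 15 tested members, the two-sided exact permutation p ran from 0.114 to 0.600.

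**Figure D2:**
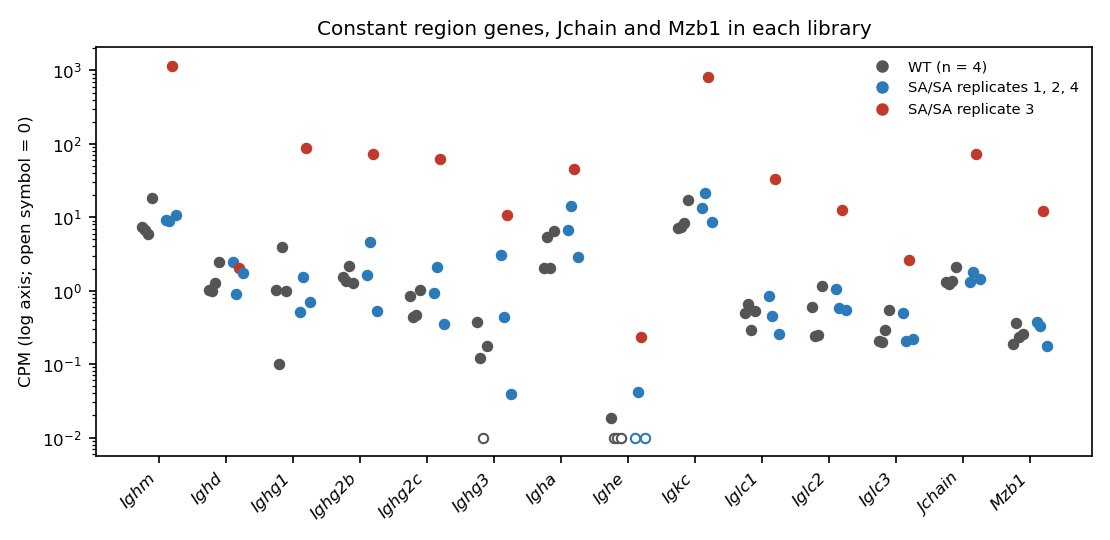
Level of the 12 constant region genes, Jchain and Mzb1 in CPM on a log axis, with 1 point per library, WT left and SA/SA right within each gene, and open symbols for libraries listed at 0. SA/SA replicate 3 is the highest library for every gene shown except Ighd, where it reads 2.03 CPM against 2.45 CPM in SA/SA replicate 1.

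The isotype make-up of SA/SA replicate 3 also differed from that of the other libraries, which was examined with counts divided by the merged exon length of each gene. Ighm took 82.5% of the heavy constant total per length in SA/SA replicate 3 and 32.4% to 67.3% in the others. On undivided counts the share was 80.6% (exact 95% binomial interval 80.2 to 80.9, which covers counting error only), and the highest other library, SA/SA replicate 4, had 63.0% (59.7 to 66.3). Igha took 2.27% per length in SA/SA replicate 3 against 10.5% to 36.2%, and Ighd 0.143% against 3.30% to 11.2%. The ratio of Ighm to Ighd per length was accordingly 577 in SA/SA replicate 3, compared with 3.82 to 9.85 elsewhere. The 4 IgG genes together took 15.02% per length, within the range of 9.03% to 36.7% in the others. The excess of this library was therefore not spread evenly over the isotypes, with Ighm over-represented and Igha and Ighd under-represented.

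The other libraries had distinct make-ups of their own. SA/SA replicate 2 had more Igha than Ighm per length, at 36.2% against 32.4%. WT replicate 3 had 20.9% Ighg1, against 0.543% to 5.56% in the other libraries, and SA/SA replicate 1 had 10.7% Ighg3, against at most 2.13% in the others. Among the light chains, the lambda genes took 6.18% of the constant total per length in SA/SA replicate 3, within the range of 5.69% to 16.0% in the others. By genotype, Ighm took 53.6 ± 8.50% in WT and 56.3 ± 22.8% in SA/SA (SD, n = 4 each), a difference well within the spread.

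**Figure D3:**
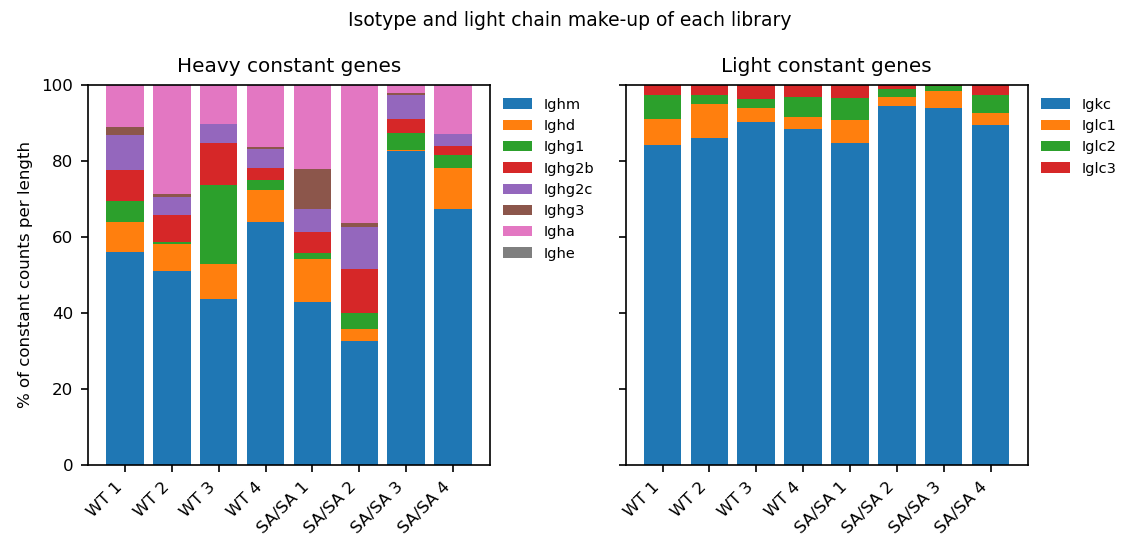
Stacked bars of the percent of each library's heavy (left) and light (right) constant region counts, divided by gene length, that each gene takes. Ighm takes 82.5% of the heavy bar in SA/SA replicate 3 against 32.4% to 67.3% elsewhere, and Igkc takes 84.0% to 94.3% of the light bar in all 8 libraries.

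Several other ratios between members lay within or near the range of the other libraries in SA/SA replicate 3. Mzb1 stood to Jchain per length at 0.342 in SA/SA replicate 3, within the range of 0.257 to 0.611 in the other 7. Jchain stood to Igkc per length at 0.0194, near the low end of the others at 0.0177 to 0.0396. Kappa V stood to kappa constant per length at 0.395, within 0.311 to 0.467, and lambda V to lambda constant at 0.531, within 0.181 to 0.563. Heavy V to heavy constant was 0.279, just below the range of 0.303 to 0.546 in the others.

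Among the heavy V genes, Ighv1-53 had the most counts in SA/SA replicate 3, with 593 of 2927 heavy V counts (20.3%, exact 95% binomial interval 18.8 to 21.8). It had 5, 0, 1 and 4 counts in WT replicates 1 to 4 and 2, 4 and 0 in SA/SA replicates 1, 2 and 4. Ighv1-72, whose stretch shown above is nearly identical to that of Ighv1-53 and which has hardly a word of its own, had 449 counts in SA/SA replicate 3. It had at most 3 in any other library. Ighv10-3 had 236 counts there and at most 2 elsewhere, Ighv1-78 had 158 and at most 6, and Ighv1-64 had 142 and at most 9. None of these leading genes except Ighv1-64 was also the leading heavy V gene of another library. The most counted heavy V gene was Ighv1-80 in WT replicates 1 and 4 and in SA/SA replicate 4, Ighv1-64 in WT replicate 2, Ighv1-26 in WT replicate 3, Ighv1-11 in SA/SA replicate 1 and Ighv9-3 in SA/SA replicate 2, each on 6 to 14 counts. Ighv1-11 had 12 of its counts in SA/SA replicate 1 and 0 in SA/SA replicate 3.

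Among the kappa V genes, Igkv3-2 alone held 3454 of 8453 kappa V counts in SA/SA replicate 3 (40.9%, 39.8 to 41.9). It had 4 counts in WT replicate 4, 8 in SA/SA replicate 2 and 0 in the other 5 libraries. The next most counted, Igkv14-111 and Igkv9-120, had 595 and 537 counts in SA/SA replicate 3 and at most 12 and 4 elsewhere. Through Igkv3-2, the Igkv3 family took 44.0% of kappa V counts in SA/SA replicate 3 and 1.06% to 12.8% in the others. By contrast, the Ighv1 family took 75.5% of heavy V counts, within the range of 47.1% to 78.9% elsewhere. Another library showed a comparable concentration on a different gene. In SA/SA replicate 1, Igkv8-16 held 93 of 215 kappa V counts (43.3%, 36.5 to 50.2), and the only other library with counts of it was SA/SA replicate 3, with 136. In the remaining 6 libraries the leading kappa V gene took 7.21% to 12.8%. For lambda, Iglv1 read 682 counts in SA/SA replicate 3 and 6 to 24 in the others, and Iglv3 read 83 against 0 in all WT libraries and 1, 7 and 1 in SA/SA replicates 1, 2 and 4.

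The evenness of V gene use was described by the inverse Simpson number, the number of equally used genes that would give the same chance of drawing the same gene again. For kappa V genes it was 5.43 in SA/SA replicate 3 and 4.90 in SA/SA replicate 1, against 19.3 to 30.3 in the other 6 libraries. For heavy V genes it was 11.5 in SA/SA replicate 3, close to the lowest of the others, 11.9 in WT replicate 2, with the remainder up to 23.2. The number of V genes seen depends on the counts, which differed widely, and was therefore compared at 1 fixed count. At 41 counts, 17.6 heavy V genes were to be seen in SA/SA replicate 3, within the range of 13.3 to 20.7 in the others. At 94 counts, 26.4 kappa V genes were to be seen, within the range of 22.5 to 35.7. The 10 leading genes of each library held 72.4% of the heavy V counts in SA/SA replicate 3, within the range of 64.0% to 90.2% for the leading 10 of the other libraries, and 74.1% of the kappa V counts, within 52.5% to 82.3%. All of these measures used members only, of which 21 heavy and 28 kappa V genes met the count minimum only through SA/SA replicate 3. Rows below the minimum were left out in every library, so the place of SA/SA replicate 3 in these ranges depends in part on the selection.

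**Figure D4:**
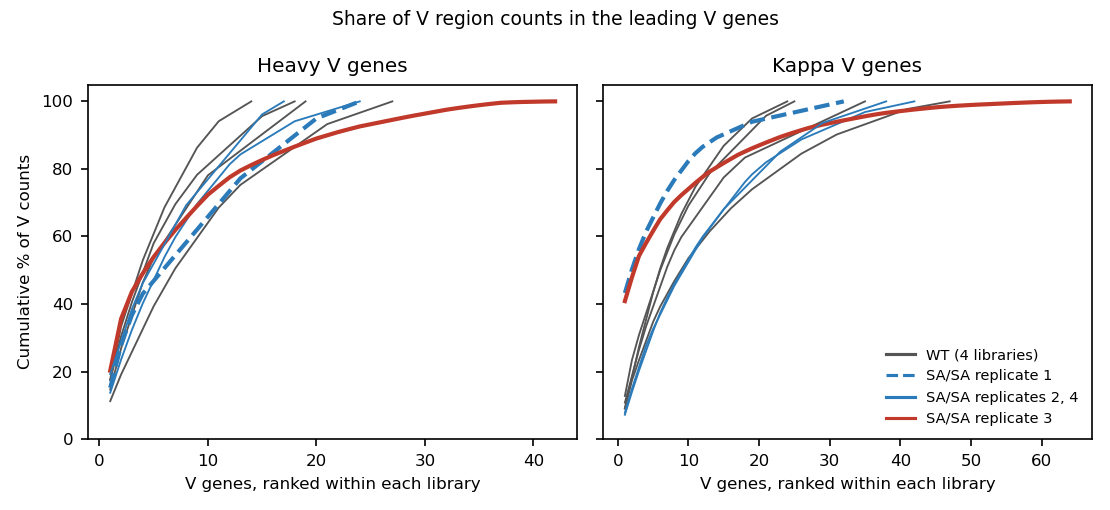
Cumulative percent of heavy (left) and kappa (right) V counts against the V genes ranked within each library, with 1 line per library ending at its last gene with a count. The kappa curves of SA/SA replicates 3 and 1 start at 40.9% and 43.3%, against 7.21% to 12.8% for the other 6 libraries.

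Over the whole set, 114 of the 126 members were highest in SA/SA replicate 3, a count favoured by the selection of the 51 members that met the minimum only through this library. Among the 75 that met it without this library, 63 were highest there, and the median member of these 75 had 70.7% of its counts there. The 12 members that were highest elsewhere were Ighd, 7 heavy V and 4 kappa V genes. Besides Ighv1-11, these included Igkv4-86, the leading kappa V gene of WT replicate 3, which had 9 counts there and 5 in SA/SA replicate 3. Igkv1-110, the leading kappa V gene of SA/SA replicate 2 and the only kappa V gene that passed the expression filter, was among the members least concentrated in 1 library. It had 2, 3, 7 and 15 counts in WT and 11, 16, 22 and 7 in SA/SA, with a log2 fold change of 1.18 ± 0.68 (SE; edgeR adjusted p = 0.993).

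Other genes of the B lineage and of other cells were read beside these values, from lists chosen with earlier results of these data known. No gene of any list was called (lowest adjusted p = 0.993 by edgeR), and Derl3, Eaf2, Cd3d, Klrb1c and Cela2a had an unadjusted p under 0.05. Of 13 further plasma cell genes 12 were tested and all 12 had a higher fitted mean in SA/SA. Their median log2 fold change was 0.93, against -0.0050 over all genes tested. By edgeR, 2 had an unadjusted p under 0.05, Derl3 and Eaf2, where 1.42% of all genes tested were higher at this level. Derl3 read 3.43 and 5.70 CPM in SA/SA replicates 2 and 3, and 0.295 to 0.910 CPM in the others. Eaf2 read 1.19 CPM in SA/SA replicate 3 and 0.187 to 0.538 CPM in the others. Fits of this list without SA/SA replicate 3 are not given here. Irf4, a transcription factor required for plasma cells, read 4.28 CPM in SA/SA replicate 3 and 0.0421 to 0.572 CPM in the others. Pou2af1, a B cell coactivator of immunoglobulin transcription, read 8.26 against 0.257 to 1.03 CPM, Tnfrsf13b, a receptor for B cell survival factors, 2.83 against 0.0842 to 0.474 CPM, and Prdm1, which drives plasma cell differentiation, 1.29 against 0.126 to 0.494 CPM. Of the 13 genes, 10 were highest in SA/SA replicate 3. Slamf7 read 2.77 against at most 0.869 CPM, whereas the margin was narrow for Fkbp11 and Xbp1. Fkbp11 read 7.81 against at most 7.38 CPM, and Xbp1 210 against 104 to 208 CPM. Sdc1, Ell2 and Txndc5 lay within the range of the others. They read 399 CPM within 349 to 484, 38.6 CPM within 28.7 to 48.8, and 166.5 CPM within 125.7 to 166.6. Sdc1, Xbp1 and Txndc5 made up most of the summed level of the list. In SA/SA replicate 3 this sum, 848 CPM, lay within the range of the others, 673 to 902 CPM. Tnfrsf17, a plasma cell receptor, was at or near 0 in every library, at 0.158 CPM in SA/SA replicate 3.

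B cell genes stood above the other libraries by much less than the immunoglobulins. The 12 genes summed to 33.4 CPM in SA/SA replicate 3 and to 5.69 to 17.5 CPM in the others, 8 of the 12 were highest there, and their median log2 fold change was 0.66. Cd79a and Cd79b, which encode the signalling chains of the B cell receptor, read 5.97 and 6.26 CPM against at most 3.32 and 2.72 CPM. Pax5, the B cell identity factor, was within the range of the others at 1.24 CPM. The 10 T cell genes summed to 16.2 CPM against 4.42 to 10.1 CPM and the 4 NK cell genes to 3.62 against 0.876 to 2.55 CPM. The 5 cell cycle genes summed to 19.2 against 1.81 to 7.45 CPM, with Mki67, a marker of dividing cells, 3.86-fold above the highest of the others, which read 0.937 to 2.59 CPM. Of the germinal centre genes, S1pr2 and Mybl1 were within the range of the others, at 3.33 CPM within 3.15 to 6.91 CPM and 0.185 CPM within 0.0598 to 0.494 CPM, whereas Gcsam read 0.634 CPM against at most 0.334 CPM. The sum of the 5 lymphoid stroma genes was within the range, at 4.67 against 1.55 to 5.18 CPM, and Glycam1 of this list was listed at 0 in all libraries. Within this list Ccl19 stood above the other libraries, at 2.53 against 0.167 to 0.869 CPM, whereas Cxcl13 was within their range, at 1.77 CPM within 0.538 to 4.10 CPM. The part of these other cells in the immunoglobulin values was not tested.

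Of the remaining lists, the sum of the hepatocyte genes was highest in SA/SA replicate 3, and the sums of the others lay within the range of the other libraries. The 6 Kupffer cell genes summed to 257 CPM, within 149 to 360.0 CPM, the 4 neutrophil genes to 8.05 CPM, within 1.80 to 11.9 CPM, and the 5 red blood cell genes to 951 CPM, within 411 to 2647 CPM. The pancreatic acinar genes, which were at 35.0 CPM in WT replicate 2, were at 0.554 CPM. The 5 hepatocyte genes summed to 130000 CPM in SA/SA replicate 3, 1.06-fold above the highest of the others. Of the 5, 2 were highest there, with Alb at 97390 CPM against 63060 to 90810 CPM and Cyp2e1 at 10460 against 6098 to 8763 CPM. Ttr read 4418 CPM within 3932 to 5293 CPM, Cps1 5032 CPM within 1829 to 5262 CPM, and Apoa1 12750 CPM within 10620 to 14230 CPM. The sum of the genes for immunoglobulin receptors and transport was likewise within the range, at 1919 CPM against 1540 to 2151 CPM. Pigr made up most of it, so the sum does not describe the other genes. Of these 9 genes, 3 were narrowly highest in SA/SA replicate 3. Fcgr3 read 8.39 against at most 7.97 CPM, Trim21 7.05 against at most 6.845 CPM, and Fcmr 0.898 against at most 0.863 CPM. Pigr, which carries IgA polymers into bile, read 1579 CPM in SA/SA replicate 3 and 1187 to 1775 CPM in the others, with a log2 fold change of -0.09 ± 0.15 (SE; edgeR adjusted p = 0.993). The plasma cell survival and homing genes summed to 311 CPM, within 301 to 379 CPM. Cxcl12 made up most of this sum, at 301.2 CPM, so the sum does not describe the other genes. Of the 9 genes, 3 were highest in SA/SA replicate 3, and the others were not. These were Itga4 at 3.67 against at most 2.002 CPM, Cxcr4 at 2.98 against at most 2.295 CPM, and Cxcr3 at 2.03 against at most 0.949 CPM.

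**Figure D5:**
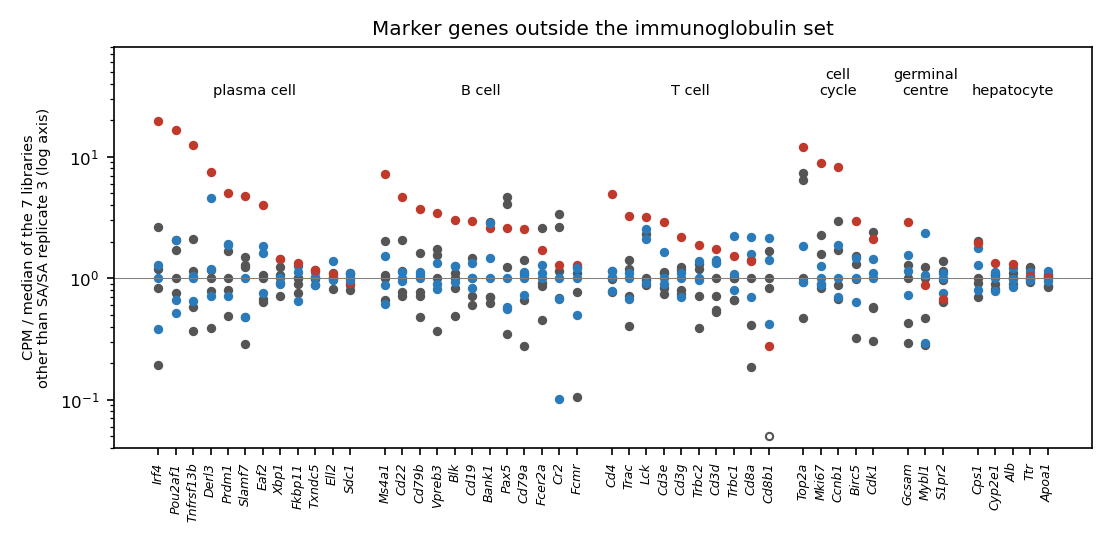
Level of marker genes outside the immunoglobulin set, as CPM divided by the median of the 7 libraries other than SA/SA replicate 3, on a log axis, with WT in grey, SA/SA replicates 1, 2 and 4 in blue, SA/SA replicate 3 in red and an open symbol for 0. Irf4, Pou2af1 and Tnfrsf13b are 12.4-fold to 19.7-fold above the median in SA/SA replicate 3, whereas the hepatocyte genes are at most 1.94-fold above it, for Cps1.

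Across all genes tested, a value more than 2-fold above all other libraries was found for 13 of the 15 tested members and 79 of the 14614 other genes in SA/SA replicate 3. In each of the other 7 libraries it was found for 9 to 35 of the other genes and for no member. The 15 genes outside the set that stood farthest above the other libraries in SA/SA replicate 3 were Pou2af1, Irf4, Phgdh, Chst1, Tnfrsf13b, Mup14, Megf6, Cd4, Osbpl3, Cxcl1, Gm4477, Ptprv, Mki67, Slpi and Ms4a1. The first of them, Pou2af1, was 7.78-fold above the next library on the log2 scale with a prior count of 2. Several of these are genes of lymphocytes (Pou2af1, Irf4, Tnfrsf13b, Cd4, Ms4a1), while Mup14, a urinary protein gene of hepatocytes, and Phgdh, the first enzyme of serine synthesis, are not specific to them.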

How the data were processed

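Liver RNA of 8 mice, 4 WT and 4 SA/SA, was sequenced from stranded mRNA libraries, 1 for each animal. The values are estimated counts that the authors made with salmon, merged by gene and scaled for transcript length, as the deposited table's name states. The submitters' processing notes name GRCm38, bcl2fastq, STAR, SAMtools, MultiQC and DESeq2 without a role, and the annotation release was not given in the sources used here. Estimated counts were rounded to whole numbers. Library totals of 39709785 to 54540864 set the precision, and intervals cover counting error only. Counts refer to germline V genes, so that rearranged or mutated V regions may be counted in part or under a relative.

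Groups followed the sample titles. Genes were filtered with filterByExpr, scaled by TMM and compared in R 4.3.3 with edgeR 4.0.16 (quasi-likelihood test), with adjustment over all 14629 genes tested. DESeq2 1.42.0 and limma 3.58.1 (voom) were alternatives, beside other scalings, filters, a robust fit, a replicate block, the label number series as a term and leaving out each library. The code was tested on simulated data. Log2 CPM used a prior count of 2, and exact permutation tests were two-sided. Isotype shares used merged exon lengths of GENCODE M21, which matched all 126 members. Sums, shares and V gene spread are descriptions without a test. Exact binomial intervals, inverse Simpson numbers without replacement and expected gene numbers were computed with Python 3.11.15 and scipy 1.17.1.

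Named genes were all constant genes, Jchain and Mzb1, the 5 heavy, 5 kappa and 3 lambda V genes with the most counts, the leading heavy and kappa V gene of each library, the genes nearest the count minimum, the marker lists, and the 15 other genes farthest above the other libraries in the library with the highest constant region level. The members, the marker lists and the tests were chosen with earlier results of these data known. A search for recombination signals after the V genes was not run here, because it needs a genome sequence that was not used here. A gene of the marker lists is not reported here.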

Additional observations from a re-analysis of the deposited data

Results flagged for a closer look

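In each group of 4 libraries, the gap between the highest or lowest library and its nearest neighbour was divided by the whole range of the group, on log2 CPM, and compared with Dixon's 95% critical value for 4 samples. Of 40 groups searched, 10 held a library past this value, where chance alone gives about 1 in 20, and 7 of the 10 were SA/SA replicate 3. For this library the ratio was 0.853 for the summed heavy constant genes, 0.834 for heavy V, 0.886 for kappa V, 0.942 for lambda V, 0.963 for Ighm, 0.923 for Jchain and 0.843 for Mzb1. These measures come from the same mouse and are not independent of each other. The heavy, kappa and lambda V sums include 21, 28 and 1 genes that met the count minimum only through this library, which raises its sums. Ratios without these genes are not given here, so the V sums add no support to the count of 7.

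WT replicate 4 stood above the other 3 WT libraries for the summed heavy constant genes (0.858) and the summed kappa V genes (0.896), at 30.6 and 5.23 CPM against at most 15.9 and 2.08 CPM. For Ighe the ratio was 1.0 in WT replicate 1, which had 1 count where the other 3 WT libraries had 0, so that this entry rests on a single count.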

How the results depend on the processing

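No member was called under any of the alternatives run, and the number at unadjusted p under 0.05 ran from 0 of 15 (limma-voom, 3.19% of all genes tested) to 18 of 21 (without SA/SA replicate 4, 4.20% of all genes tested) where the expression filter was kept. The median log2 fold change of the tested members ran from 0.22 (without SA/SA replicate 3, 16 members) to 4.03 when 1 library was left out at a time, and was 1.32 with limma-voom and 2.40 with the label number series as a term. Without the expression filter all 126 members were tested, but 51 of them met the count minimum only through SA/SA replicate 3, which favours a higher value in SA/SA, so no count is given. Leaving out SA/SA replicate 3 also turned the direction of Ighg1 (-0.70, up to 5.00 without WT replicate 3) and Iglc3 (-0.014, up to 1.89 without WT replicate 4). The sum differences changed with this library as given above. On undivided counts, Ighm took 80.6% of the heavy and lambda 5.67% of the light constant counts in SA/SA replicate 3. With all V rows that had a count, 20.9 heavy V genes were expected at the fixed count in that library, and at a fixed count 2 times lower 11.6 heavy and 18.04 kappa V genes. The values of the other libraries under these settings are not given here, so its place among them is not known. Of the other alternative values, 345 stayed within 1 SD or kept their direction and side of the threshold, although the SD of SA/SA is wide because of replicate 3. The 345 include large changes without SA/SA replicate 3, so they do not show that the results held without it. Ighm went from 4.96 to 0.0062, Jchain from 3.71 to 0.0088, and the heavy constant sum difference from 1.89 to 0.41. Also among the 345, the differences of the summed heavy, kappa and lambda constant genes changed sign within the low series (-0.030, -0.027 and -0.13). There were no annotated pseudogenes among the members, so leaving them out changed no value.

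The replicate numbers were checked for pairing through the correlation of deviations from the group means, which was 0.057, 0.17, -0.11 and 0.13 for same-numbered mice, and not every library correlated best with its own number, so the numbers were not taken to pair the mice. With a replicate block no member was called (0 calls) and the median log2 fold change was 1.42. Depth limits most V genes to single counts outside SA/SA replicate 3, so that their absence there was not detectable at this depth.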
